A study of Homo sapiens with 6 samples.

Results

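The genes described here encode the proteasome: the subunits of its 20S core and 19S regulatory particle, the factors that assemble both, and its activators and inhibitor. They were taken as the rows of the count table whose symbol is PSM, a letter from A to G and a number. The immunoproteasome genes PSMB8 and PSMB9 were set aside by that rule. The rule gave 46 genes of 55882 rows, and 44 of them passed the filter on low counts. The other 2, PSMA8 and PSMB11, had no count in any library.

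RNA was measured by sequencing of polyadenylated transcripts in 3 p53 KO and 3 p53 WT libraries of DIvA cells. DIvA is a derivative of the human osteosarcoma line U2OS that carries the restriction enzyme AsiSI in a form that enters the nucleus and cuts DNA when 4-hydroxytamoxifen (4-OHT) is given. Every library, p53 WT included, came from cells given 300 nM 4-OHT for 5 h, so the values describe the 2 genotypes after DNA cutting and say nothing of untreated cells. The labels do not say how many knockout clones were used or whether replicates were separate cultures, so the p-values weigh only the spread between these libraries.

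The proteasome is the protease that degrades ubiquitin-tagged proteins in the nucleus and cytoplasm. Its 20S core is a barrel of outer alpha rings, which gate entry, and inner beta rings, which hold the cutting sites of PSMB5, PSMB6 and PSMB7. The 19S particle binds the barrel's end: a base of PSMC ATPases unfolds the substrate, scaffold subunits and ubiquitin receptors hold it, and a lid with the deubiquitinase PSMD14 removes the ubiquitin. MDM2 tags p53 for this protease, and the transcription factor NFE2L1 is known to raise proteasome genes together when proteasome activity is low.

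Total counts were 20393909 to 72621732 in p53 KO libraries and 24347609 to 79767519 in p53 WT libraries, and the least abundant tested proteasome gene still had at least 231 counts in a library. CDKN1A, the cell cycle inhibitor that p53 induces, had 49.1, 41.8 and 46.5 CPM (counts scaled to library size and composition) in p53 KO libraries, against 572, 520.5 and 533 CPM in p53 WT libraries, so the libraries go with their genotype labels. MDM2, the p53-induced ubiquitin ligase of p53, had 68.9, 60.9 and 43.0 CPM in p53 KO libraries, against 187, 242 and 234 CPM in p53 WT libraries. Of 8 mesenchymal markers, 7 were well above 1 CPM in every library, among them VIM, SPARC and COL1A1, while COL1A2 stayed under that level. Their summed level was 4057 to 4452 CPM in p53 KO libraries and 7299 to 7751 CPM in p53 WT libraries, with 6 of 8 lower and 1 higher. Of 5 epithelial markers, 1 (KRT8) was higher, with sums of 575 to 700 CPM in p53 KO libraries and 489 to 547.5 CPM in p53 WT libraries. The leukocyte sum was 1.12 to 1.297 CPM in p53 KO libraries and 1.40 to 2.25 CPM in p53 WT libraries, with LYZ at 0 throughout, and the endothelial sum stayed under 3.29 CPM. Neuronal markers summed to 28.4 to 37.8 CPM in p53 KO libraries and 36.7 to 38.9 CPM in p53 WT libraries, with 1 of 4 (MAP2) lower. Their part in the results was not tested, and in bulk RNA fewer cells of a type and less RNA per cell cannot be told apart.

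Proteasome genes did not move as a block in p53 KO cells. Of the 44 tested, 11 were higher, 7 were lower and 26 did not pass the threshold, an adjusted p under 0.05 by edgeR's quasi-likelihood test over all genes. That is 40.9% called, against 26.5% of all 22352 genes tested and 40% of the 8176 genes that averaged 20 CPM or more, as 42 of the 44 did, so the share was close to that of abundant genes in general. By direction, 12.1% of all genes were higher and 14.4% lower, and among the abundant genes 17.8% and 22.2%. These shares are the background for the counts in each smaller group of genes below. The median log2 fold change, p53 KO over p53 WT, was 0.10 for the proteasome genes and 0.005 for all genes, and the median size without regard to sign was 0.24 and 0.40. Among the abundant genes that median size was 0.27, close to that of the proteasome genes. Only PSMC1 differed by 2-fold or more. Without p53 WT replicate 2, 6 proteasome genes were called higher and 4 lower, and without p53 WT replicate 3 the counts were 6 and 7. Among the 26 genes that did not pass, fold changes ran from -0.28 to 0.27 and the 95% interval lay within 0.5 of 0 on the log2 scale for 23.

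**Figure D1:**
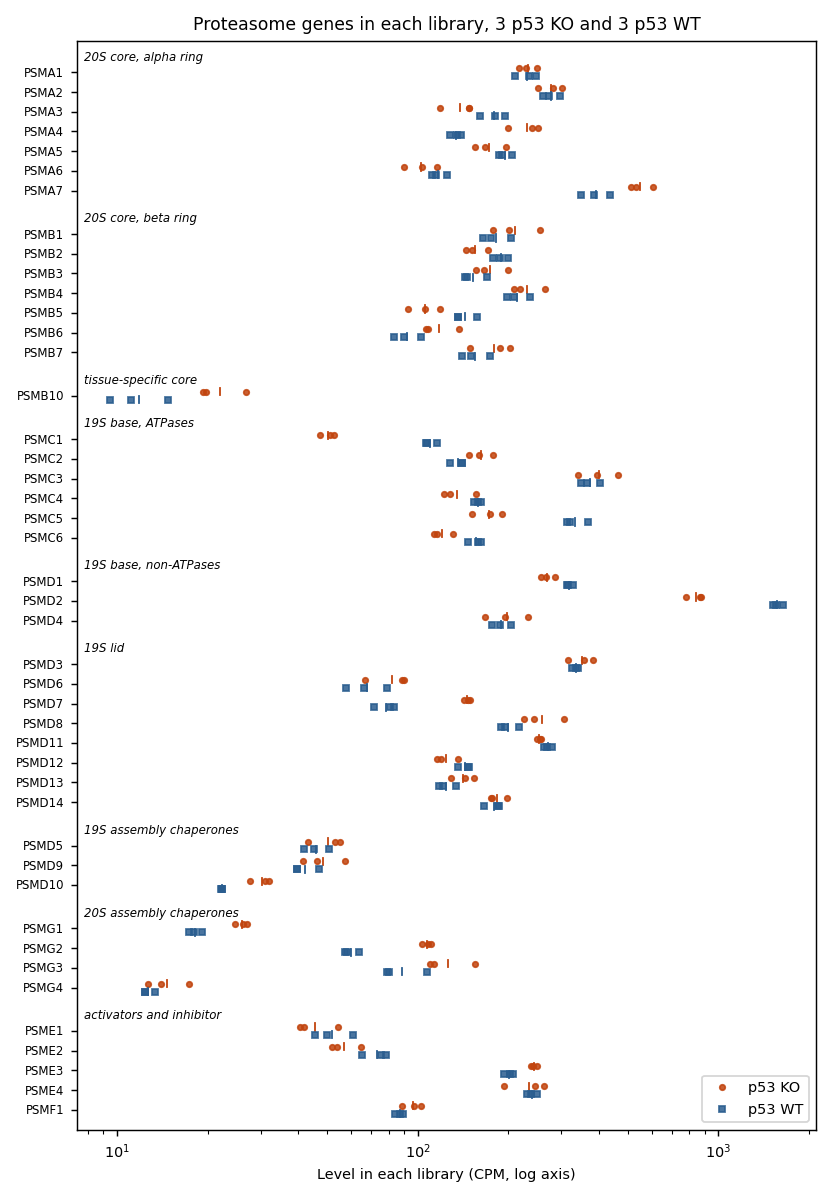
Levels of the 44 tested proteasome genes in each library, as CPM on a log axis, grouped by role. Circles are the 3 p53 KO libraries, squares the 3 p53 WT libraries, and short vertical lines the group means. PSMD2 lies at the top of the range, at 780 to 873 CPM in p53 KO libraries and 1514 to 1636 CPM in p53 WT libraries.

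In the alpha ring of the core, 2 of 7 genes rose and 1 fell. The background was 12.1% higher and 14.4% lower among all genes, and 17.8% and 22.2% among abundant genes. PSMA4 had 239, 199 and 251.5 CPM in p53 KO libraries, against 139.5, 135 and 128 CPM in p53 WT libraries. All p53 KO libraries lay above all p53 WT libraries, and the log2 difference was 0.78 (SE 0.10, adjusted p = 8.14e-05 by edgeR). PSMA7, the most abundant alpha subunit, had 533, 510.2 and 607 CPM in p53 KO libraries, against 434, 386 and 349.6 CPM in p53 WT libraries. It too was separated between the groups, at 0.50 (SE 0.10, adjusted p = 0.0027 by edgeR). PSMA3 went the other way, with 148, 119 and 148 CPM in p53 KO libraries, against 195, 180.1 and 161 CPM in p53 WT libraries. Its decrease, -0.37 on that scale (SE 0.11, adjusted p = 0.0246 by edgeR) lost its call without p53 KO replicate 2 (-0.28, adjusted p = 0.0985 by edgeR), p53 WT replicate 1 (-0.31, adjusted p = 0.0972 by edgeR) or p53 WT replicate 2 (-0.37, adjusted p = 0.0885 by edgeR). PSMA1 and PSMA2 had fold changes of 0.003 and 0.004, with 95% intervals of -0.21 to 0.21 for each. PSMA6, the least abundant alpha subunit, had 103, 89.9 and 116 CPM in p53 KO libraries, against 125, 115 and 111 CPM in p53 WT libraries. The groups overlapped at -0.19 (adjusted p = 0.236 by edgeR), and PSMA5 had -0.17. The ring's members are present in equal number in each assembled barrel, and their transcripts differed in both size and direction of change.

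In the beta ring, 1 of 7 genes rose and 1 fell. Among all genes 12.1% were higher and 14.4% lower, and among abundant genes 17.8% and 22.2%. Both called genes encode catalytic subunits, and the remaining catalytic subunit, PSMB7, did not pass. PSMB5, which carries the chymotrypsin-like site, had 106, 92.8 and 119 CPM in p53 KO libraries, against 157, 136 and 136 CPM in p53 WT libraries, lower by a log2 fold change of -0.44 in p53 KO (SE of 0.11, adjusted p = 0.00968 by edgeR). PSMB6, which carries the caspase-like site, had 107, 108 and 137.5 CPM in p53 KO libraries, against 102, 90.3 and 83.4 CPM in p53 WT libraries. Its rise of 0.35 (SE 0.12, adjusted p = 0.046 by edgeR) was the one nearest to the threshold. It was lost without p53 KO replicate 3 (0.23, adjusted p = 0.127 by edgeR), p53 WT replicate 2 (0.33, adjusted p = 0.153 by edgeR) or p53 WT replicate 3 (0.28, adjusted p = 0.194 by edgeR). PSMB7, the trypsin-like subunit, averaged 179.9 ± 27.3 CPM in p53 KO and 155 ± 16.7 CPM in p53 WT (SD, n = 3 each), with 0.22 and an interval of -0.04 to 0.48. PSMB4, the most abundant beta subunit, had 218, 209 and 265 CPM in p53 KO libraries, against 236, 208 and 198 CPM in p53 WT libraries, which overlap. The non-catalytic PSMB1, PSMB3 and PSMB4 had 0.21, 0.18 and 0.10, and PSMB2 had -0.28 (adjusted p = 0.0512 by edgeR).

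Of the core subunits made in particular tissues or states, PSMA8 of the testis and PSMB11 of the thymus had no counts. PSMB10, which replaces PSMB7 in the interferon-induced immunoproteasome, was detected at a low level. It had 19.8, 19.3 and 26.8 CPM in p53 KO libraries, against 14.8, 11.1 and 9.50 CPM in p53 WT libraries. The groups did not overlap, and its rise of 0.88 (SE 0.19, adjusted p = 0.0032 by edgeR) had the widest error of the genes called. Its mean in p53 KO, 21.99 ± 4.18 CPM, stood beside 179.9 CPM of its standard counterpart PSMB7. Of 10 genes of interferon signalling, 2 were higher: IRF1, an interferon-induced activator, at 0.58 (adjusted p = 0.0155 by edgeR), and the receptor chain IFNGR2 at 0.77 (adjusted p = 0.000859 by edgeR). The medians of their chromosomal neighbours were -0.008 and 0.17. The other 8 did not pass.

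The base of the 19S particle held the largest decreases. Of its 6 ATPases 3 fell and none rose, and of its 3 tested scaffold and receptor subunits 1 fell. Among all genes 14.4% were lower, and among abundant genes 22.2%. PSMC1 and PSMC6 lie on chromosome 14, where 64.8% of 406 expressed protein-coding genes were lower. PSMC1, the ATPase Rpt2, had 52.6, 47.2 and 51.1 CPM in p53 KO libraries, against 107, 116 and 107 CPM in p53 WT libraries. This was the largest change of any proteasome gene, at -1.13 (SE 0.10, adjusted p = 2.44e-06 by edgeR). PSMC5, the ATPase Rpt6, had 174, 151.5 and 190.5 CPM in p53 KO libraries, against 367, 319.7 and 313 CPM in p53 WT libraries, a change of -0.96 (SE 0.11, adjusted p = 1.82e-05 by edgeR). PSMC6, the ATPase Rpt4, had 131, 113 and 116 CPM in p53 KO libraries, against 162.5, 158 and 147 CPM in p53 WT libraries. Its change of -0.38 (SE 0.10, adjusted p = 0.0108 by edgeR) lost its call without p53 WT replicate 2 (-0.37, adjusted p = 0.0568 by edgeR). PSMC3, the most abundant ATPase, had 395, 340.4 and 464 CPM in p53 KO libraries, against 405, 365 and 349.6 CPM in p53 WT libraries, with overlapping groups and 0.10. PSMC2 and PSMC4 had 0.26 and -0.23 (adjusted p = 0.0771 and 0.137 by edgeR). In the assembled base each of the 6 ATPases is present in a single copy per ring.

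PSMD2, the scaffold Rpn1 that binds ubiquitin-like domains of shuttle proteins, was the most abundant proteasome transcript in every library. It had 868, 780.2 and 873 CPM in p53 KO libraries, against 1636, 1557 and 1514 CPM in p53 WT libraries, a change of -0.90 (SE 0.09, adjusted p = 4.75e-06 by edgeR). Its share of the summed proteasome level was 10.3% to 11% in p53 KO libraries and 18.5% to 19.1% in p53 WT libraries. With PSMD2 left out, the summed level was 7062, 6435 and 7580 CPM in p53 KO libraries and 7184, 6727 and 6425 CPM in p53 WT libraries, and the groups overlapped. The scaffold PSMD1, or Rpn2, had -0.24 (adjusted p = 0.057 by edgeR), although its libraries did not overlap. The ubiquitin receptor PSMD4 had 194.5, 168 and 232 CPM in p53 KO libraries, against 204, 188 and 176 CPM in p53 WT libraries, and 0.06 with an interval of -0.19 to 0.31.

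In the lid, 2 of 8 genes rose and none fell, beside 12.1% higher and 14.4% lower among all genes. Among abundant genes the shares were 17.8% and 22.2%. PSMD7, or Rpn8, the partner of the deubiquitinase PSMD14, had 149, 142 and 146 CPM in p53 KO libraries, against 83.5, 81.2 and 71.4 CPM in p53 WT libraries. It rose by 0.89 (SE 0.10, adjusted p = 1.57e-05 by edgeR), the largest increase of the proteasome genes. PSMD8, or Rpn12, had 243, 225 and 306 CPM in p53 KO libraries, against 216.5, 195 and 189 CPM in p53 WT libraries, and 0.36 (SE 0.12, adjusted p = 0.0318 by edgeR). That call was lost without p53 KO replicate 1 (0.41, adjusted p = 0.0501 by edgeR), p53 KO replicate 3 (0.24, adjusted p = 0.0836 by edgeR), p53 WT replicate 2 (0.34, adjusted p = 0.127 by edgeR) or p53 WT replicate 3 (0.32, adjusted p = 0.133 by edgeR). PSMD14 itself had 183 ± 12.9 CPM in p53 KO and 179 ± 11.6 CPM in p53 WT (SD, n = 3 each), a log2 fold change of 0.03 with an interval of -0.17 to 0.24. PSMD3, the most abundant lid transcript, had 356, 315.5 and 384 CPM in p53 KO libraries, against 341, 337 and 326 CPM in p53 WT libraries. PSMD6, the least abundant, had 89.9, 66.9 and 88.6 CPM in p53 KO libraries, against 79, 66.0 and 57.8 CPM in p53 WT libraries. Both overlapped between groups. PSMD3, PSMD6, PSMD11, PSMD12 and PSMD13 lay between -0.22 and 0.27 and did not pass.

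**Figure D2:**
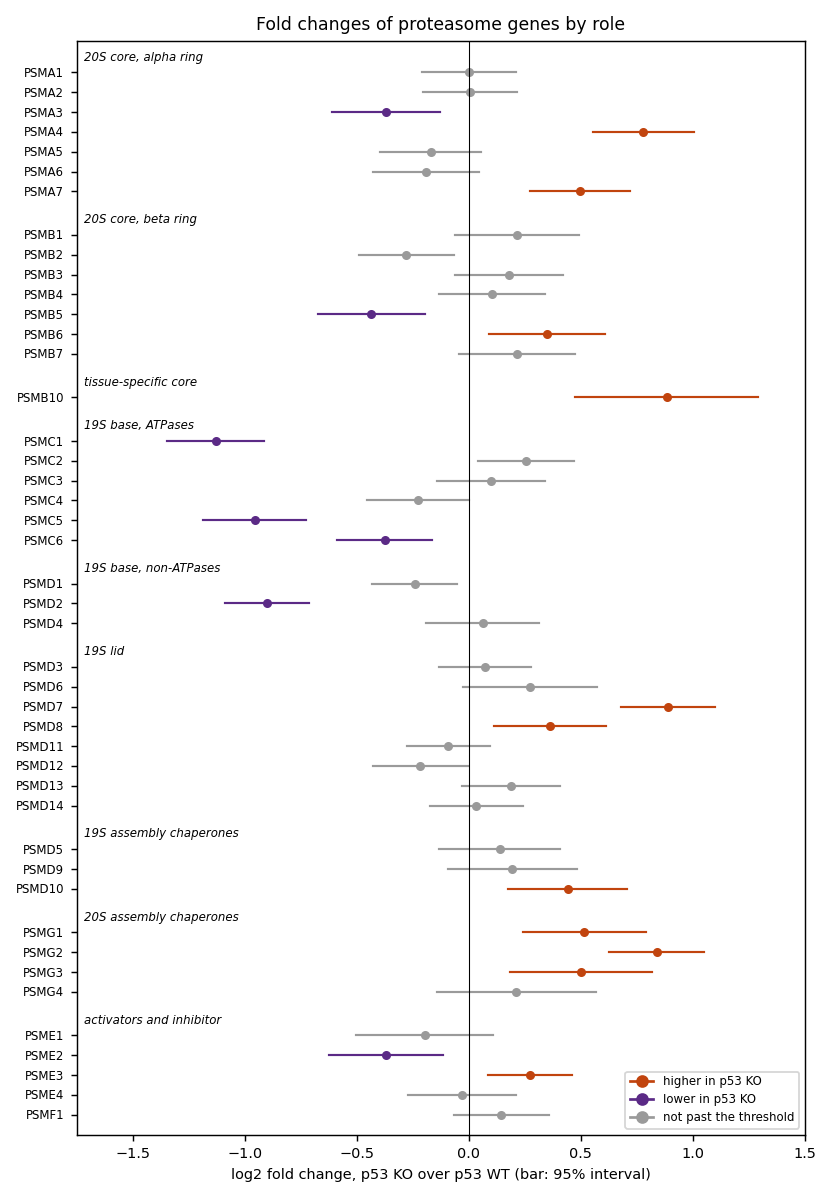
Log2 fold changes of the 44 tested proteasome genes, p53 KO over p53 WT, grouped by role, with 95% intervals from edgeR. Coloured points passed an adjusted p under 0.05, and grey points did not. The largest decreases lie in the 19S base (PSMC1, PSMC5 and PSMD2), and the 20S assembly chaperones lie to the right of 0.

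The promoters of PSMC1 and PSMD7 are shown because these genes had the largest decrease and the largest increase among called genes whose RefSeq start lay within 60 bases of a principal GENCODE start. Each stretch ends before both starts and is read 5′ to 3′ on the plus strand of GRCh38.p14, from RefSeq, at chr14:90256303-90256494 for PSMC1 and chr16:74296564-74296774 for PSMD7. Capitals mark CCAAT, the box that NF-Y binds, or the antioxidant-type elements TGACNNNGC and TGAGNNNGC, searched on both strands, and no match overlaps another here.
PSMC1: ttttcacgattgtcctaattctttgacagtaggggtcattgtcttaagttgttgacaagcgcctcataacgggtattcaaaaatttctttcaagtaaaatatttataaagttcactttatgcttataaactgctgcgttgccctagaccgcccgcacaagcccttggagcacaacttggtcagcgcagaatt
PSMD7: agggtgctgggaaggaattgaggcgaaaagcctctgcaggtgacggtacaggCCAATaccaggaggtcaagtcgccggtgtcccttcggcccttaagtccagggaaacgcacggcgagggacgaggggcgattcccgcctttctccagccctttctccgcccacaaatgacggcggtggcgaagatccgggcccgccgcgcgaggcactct
PSMD7 held 1 CCAAT, and none of these letters occurred in the PSMC1 stretch. Over the 250 bases before the RefSeq start, CCAAT was present for 16 of the 38 tested proteasome genes in the table (42.1%) and in 32% of all 35116 promoters. An antioxidant-type element was present for 15 of the 38 (39.5%) and in 23.9% of all promoters. Each proteasome gene entered with its window nearest to a principal start. All promoters were counted without a choice by start or expression, so the sets are unlike. CCAAT was found for 5 of 8 genes that rose, 3 of 7 that fell and 8 of 23 that did not pass, and the antioxidant-type element for 2, 3 and 10 of them. Of the 11 genes that rose, PSMA7, PSMB6 and PSMG3 had no promoter window and were not counted. The same holds for PSMB1, PSMB7 and PSMD4, which did not pass. For 20 of the 38 the RefSeq start lay within 60 bases of the principal start. For PSMG2, PSME2, PSMD2, PSMG1 and PSMC5 it lay 616, 611, 532, 400 and 248 bases away, so those windows may miss the bases before the principal start.

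Of the 4 PSMG genes, which encode assembly chaperones of the core, 3 rose and none fell. Among all genes 12.1% were higher and 14.4% lower, and among abundant genes 17.8% and 22.2%. The core maturation factor POMP, which has no PSM symbol, had 0.07 and did not pass. PSMG2, which pairs with PSMG1 to scaffold the alpha ring, had 108, 103 and 111 CPM in p53 KO libraries, against 63.8, 57.5 and 58.2 CPM in p53 WT libraries. Its rise of 0.84 (SE 0.10, adjusted p = 2.76e-05 by edgeR) kept its call whichever library was left out. PSMG1 had 26.3, 24.7 and 27.1 CPM in p53 KO libraries, against 17.97, 19.1 and 17.4 CPM in p53 WT libraries, and 0.52 (SE 0.13, adjusted p = 0.00818 by edgeR). PSMG3, whose partner is PSMG4, had 113, 109.9 and 155 CPM in p53 KO libraries, against 107, 80.2 and 79.0 CPM in p53 WT libraries. Its 0.50 (SE 0.15, adjusted p = 0.0218 by edgeR) lost its call without p53 KO replicate 3 (0.34, adjusted p = 0.0585 by edgeR), p53 WT replicate 2 (0.43, adjusted p = 0.112 by edgeR) or p53 WT replicate 3 (0.42, adjusted p = 0.109 by edgeR). PSMG4 had 17.3, 13.99 and 12.7 CPM in p53 KO libraries, against 13.3, 12.4 and 12.4 CPM in p53 WT libraries, and 0.21 with an interval of -0.14 to 0.57.

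Of the 3 chaperones of the 19S base, PSMD10 rose. PSMD10 encodes gankyrin, which is also known to bind MDM2 and favour p53 degradation. It had 32.0, 27.6 and 31.1 CPM in p53 KO libraries, against 22.3, 22.4 and 22.1 CPM in p53 WT libraries, a rise of 0.44 (SE 0.12, adjusted p = 0.0162 by edgeR). The call was lost without p53 KO replicate 1 (0.40, adjusted p = 0.0561 by edgeR) or without p53 WT replicate 1, 2 or 3 (0.43, 0.44 and 0.43, adjusted p = 0.0533, 0.0691 and 0.0591 by edgeR). PSMD5 had 52.9, 55.1 and 43.1 CPM in p53 KO libraries, against 41.7, 45.2 and 50.8 CPM in p53 WT libraries. It and PSMD9 had 0.14 and 0.19, with overlapping groups, and did not pass.

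Among activators, the gene pair of the interferon-induced PA28 ring was lower or did not pass, and the nuclear activator was higher. PSME2, PA28 beta, had 53.9, 51.7 and 64.6 CPM in p53 KO libraries, against 78.7, 75.4 and 65.2 CPM in p53 WT libraries, and -0.37 (SE 0.12, adjusted p = 0.0328 by edgeR). That call was lost without p53 KO replicate 1 or 2 (-0.33 and -0.31, adjusted p = 0.115 and 0.106 by edgeR), without p53 WT replicate 1 or 2 (-0.32 and -0.35, adjusted p = 0.111 and 0.125 by edgeR) and with upper-quartile scaling (-0.34, adjusted p = 0.0541 by edgeR). PSME1, PA28 alpha, had 41.9, 40.5 and 54.4 CPM in p53 KO libraries, against 60.9, 49.7 and 45.5 CPM in p53 WT libraries, and -0.20 with an interval of -0.50 to 0.11. PSME3, PA28 gamma, a nuclear activator also known to promote the MDM2-dependent turnover of p53, had 242, 249 and 237.5 CPM in p53 KO libraries, against 194, 207 and 202 CPM in p53 WT libraries. Its 0.27 (SE 0.09, adjusted p = 0.0312 by edgeR) was the smallest change called. The call held only without p53 KO replicate 3, and leaving out any other single library gave adjusted p = 0.0711 to 0.128 by edgeR with 0.24 to 0.29. PSME4, PA200, had 264, 245 and 193 CPM in p53 KO libraries, against 231, 249 and 237.5 CPM in p53 WT libraries, and -0.03, and the inhibitor PSMF1, PI31, had 0.14.

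The direction of the changes differed between chromosomes. All 7 tested proteasome genes of chromosome 14 had negative fold changes, and 5 of them were called lower. On chromosome 14 as a whole, 64.8% of 406 expressed protein-coding genes were lower and 4.68% higher, with a median of -0.61. Along that chromosome PSMB5, PSME1, PSME2, PSMA6, PSMC6, PSMA3 and PSMC1 follow each other in this order, and the median fold change of their 50 nearest expressed neighbours was -0.21, -0.33, -0.33, -0.37, -0.69, -0.64 and -0.91. Both proteasome genes of chromosome 16, PSMD7 and PSMB10, rose, beside neighbours at 0.59 and 0.53. PSMA4 on chromosome 15 and PSMA7 on chromosome 20 had neighbours at 0.65 and 0.52. The 7 genes of chromosome 17, whose median over 711 genes was 0.03, split into 2 higher, 1 lower and 4 that did not pass.

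**Figure D3:**
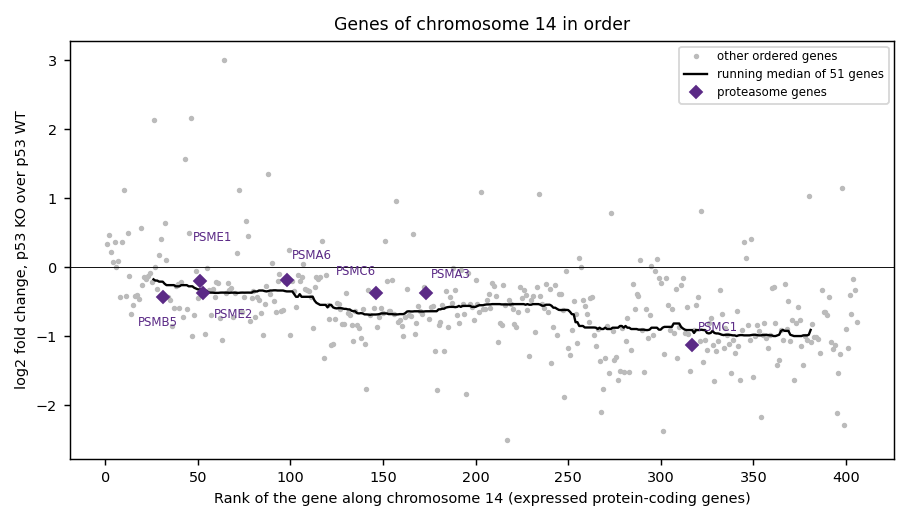
Log2 fold change, p53 KO over p53 WT, of 406 expressed protein-coding genes of chromosome 14 against their rank along it. Diamonds are the 7 proteasome genes, grey points the other genes and the line a running median of 51 genes. The line and all 7 diamonds lie below 0.

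Across the 44 genes, the fold change of a proteasome gene and the median of its 50 neighbours had Pearson's r = 0.858 and Spearman's rho = 0.828. These are 44 genes of the same 6 libraries, and genes on 1 stretch share neighbours. Over all 12084 ordered genes r was 0.393, and over the abundant ones it was 0.501. With chromosome 14 left out, r over the remaining 37 proteasome genes was 0.831. The sign was shared with the neighbours by 38 of 44 proteasome genes, by 66.9% of all ordered genes and by 69.6% of the abundant ones. All 18 called proteasome genes had the sign of their neighbours, as had 76.9% of 4575 called ordered genes and 79.9% of 3074 called abundant ones.

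**Figure D4:**
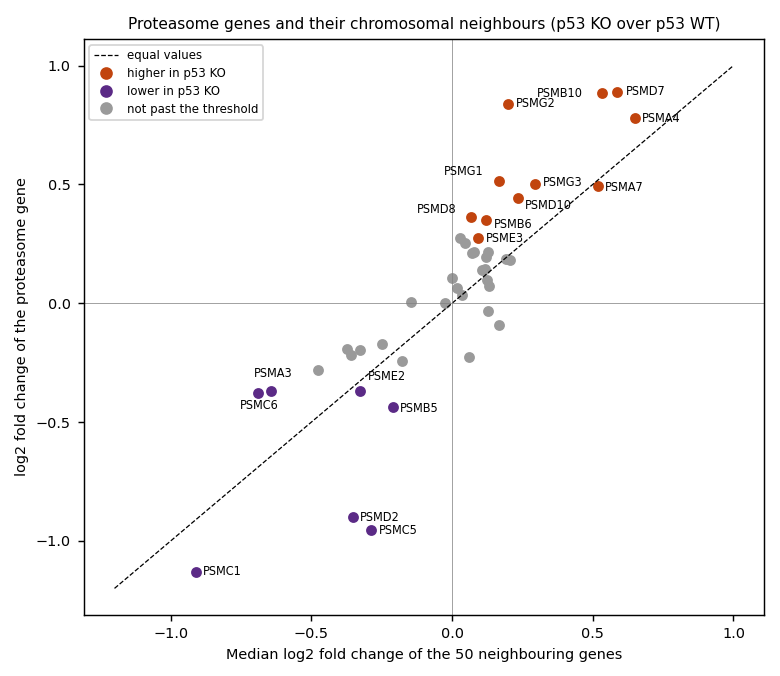
Log2 fold change of each of the 44 proteasome genes against the median log2 fold change of its 50 nearest expressed neighbours, both p53 KO over p53 WT. The dashed line marks equal values. The 18 called genes, named, lie in the quadrants where both have the same sign, and PSMC5, PSMD2 and PSMG2 lie farthest from the dashed line.

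Relative to their neighbours, most changes were small. With the median of the 50 neighbours taken off, 6 proteasome genes passed, 3 higher and 3 lower, against 24.9% of 14634 placed genes, 12.3% higher and 12.6% lower. Of the 18 calls 4 held, against 59.1% of the calls of all ordered genes and 53.2% of those of the abundant genes. The 4 that held were PSMC5 at -0.67 (SE 0.11, adjusted p = 0.000473 by edgeR), PSMD2 at -0.55 (SE 0.09, adjusted p = 0.000509 by edgeR), PSMG2 at 0.64 (SE 0.10, adjusted p = 0.00031 by edgeR) and PSMD7 at 0.30 (SE 0.10, adjusted p = 0.0339 by edgeR). The neighbours' medians beside these were -0.29, -0.35, 0.20 and 0.59. PSMC6, whose neighbours were lower than it was, turned to higher, at 0.32 (SE 0.10, adjusted p = 0.0291 by edgeR). PSMD11, the lid subunit Rpn6, was called lower only in this comparison, at -0.26 (SE 0.08, adjusted p = 0.0376 by edgeR), against -0.09 as measured. PSMC1, the largest decrease, came to -0.22 (SE 0.10, adjusted p = 0.123 by edgeR), with an interval of -0.43 to -0.01. PSMA4 came to 0.13 (adjusted p = 0.404 by edgeR), PSMA7 to -0.02 (adjusted p = 0.908 by edgeR) and PSMB10 to 0.35 (adjusted p = 0.206 by edgeR). PSME2 came to -0.04 (adjusted p = 0.832 by edgeR), and the remaining 8, PSMA3, PSMB5, PSMB6, PSMD8, PSMD10, PSMG1, PSMG3 and PSME3, had adjusted p of 0.058 to 0.364 by edgeR. PSMC5 and PSMD12 lie close together on chromosome 17 beside neighbours at -0.29 and -0.36, and had -0.96 and -0.22. The DNA copy number of these stretches was not measured here, and a shift of a stretch and the loss of p53 cannot be told apart between these groups.

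**Figure D5:**
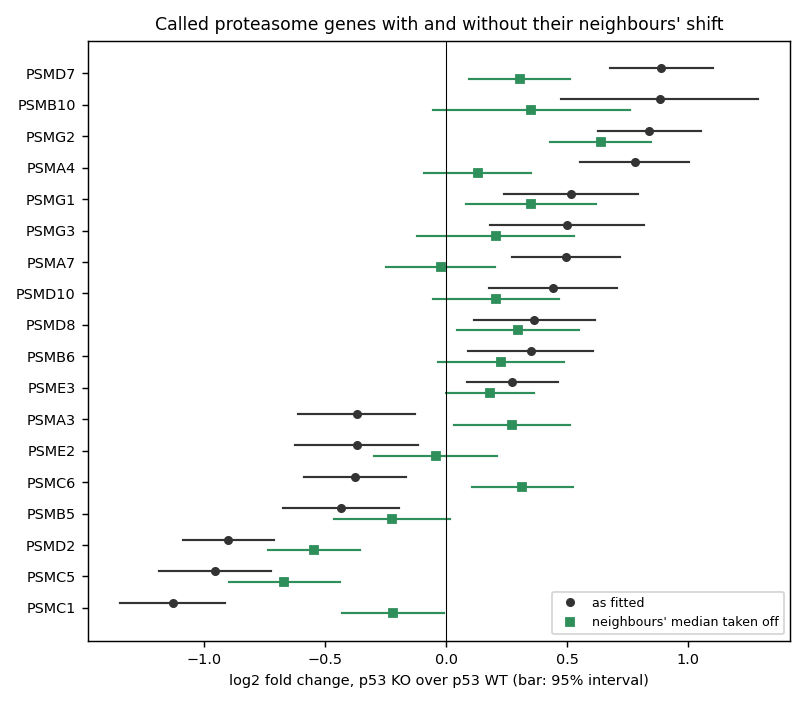
Log2 fold changes of the 18 called proteasome genes, p53 KO over p53 WT, with 95% intervals, as fitted (circles) and with the median of the 50 neighbours taken off (squares). PSMC6 moves from -0.38 to 0.32, whereas PSMC5, PSMD2, PSMG2 and PSMD7 stay on their side of 0 and past the threshold.

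Levels differed between subunits that are assembled in equal number. Per kilobase of coding sequence, alpha ring transcripts spanned 139 (PSMA6) to 739 (PSMA7) CPM in p53 KO and 159 (PSMA6) to 524 (PSMA7) CPM in p53 WT. The beta ring was tighter, with a highest to lowest ratio of 2.17 in p53 KO and 2.44 in p53 WT. Among the ATPases the level per kilobase spanned 38.1 (PSMC1) to 304 (PSMC3) CPM in p53 KO, a ratio of 7.97, and 83.4 (PSMC1) to 283 (PSMC3) CPM in p53 WT, a ratio of 3.4. PSMC1 was thus the lowest ATPase in both groups and stood farther below the others in p53 KO. In the lid, the level per kilobase ran from 70.1 (PSMD6) to 246 (PSMD8) CPM in p53 KO and from 57.9 (PSMD6) to 214 (PSMD11) CPM in p53 WT. Reads in untranslated regions are part of these levels, so genes with long ones read higher.

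Proteasome genes also varied together between libraries of a group. Within p53 KO, 30 of 44 were highest in replicate 3 and 36 were lowest in replicate 2. Within p53 WT, 36 were highest in replicate 1 and 34 were lowest in replicate 3. The median deviation of the genes from their mean over all libraries was 0.04, -0.10 and 0.14 on the log2 scale in p53 KO libraries and 0.07, -0.08 and -0.13 in p53 WT libraries, so the groups overlapped in this shared level. The groups did not overlap for 22 of the 44 genes (50%), against 40.8% of all genes tested, and all 18 called genes were among the 22. That share was not counted for abundant genes alone, among which 42 of the 44 fall, so the 2 percentages are not matched for level.

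Pseudogenes could share reads with some members. The 13 PSMC1 pseudogene rows summed to 385 counts in p53 KO and 936 in p53 WT libraries, at most 6% of the counts of PSMC1 in a library. Those of PSMD10 summed to 33 counts in p53 KO and 238 in p53 WT, opposite in direction to PSMD10, and reached 9.11% of its counts. Those of PSMA6 reached 8.94%.

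Partners of the proteasome were followed in 54 further genes, of which 9 were higher and 9 lower, with a median of 0.05. The share called lay between the 26.5% of all genes and the 40% of abundant genes. Among subunits and helpers without a PSM symbol, 3 of 10 rose and 2 fell. USP14, a deubiquitinase docked on the base, had 149.6, 121.5 and 133.5 CPM in p53 KO libraries, against 68.8, 79.2 and 79.7 CPM in p53 WT libraries, and 0.83 (SE 0.11, adjusted p = 7.04e-05 by edgeR) beside neighbours at 0.47. PAAF1, a chaperone of the base, had 0.44 (adjusted p = 0.0316 by edgeR) beside neighbours at 0.05, and the ubiquitin receptor ADRM1 had 0.31 (adjusted p = 0.0405 by edgeR) beside neighbours at 0.53, although its groups overlapped. PITHD1 and TXNL1, proteins that bind the 19S particle, had -0.60 and -0.37 (adjusted p = 0.000507 and 0.0276 by edgeR), beside neighbours at 0.09 and -0.59. The core maturation factor POMP and SHFM1, the small lid subunit SEM1, had 0.07 and 0.07 and did not pass.

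The transcription factor NFE2L1 had 190.1, 207 and 199 CPM in p53 KO libraries, against 196.5, 202 and 230.2 CPM in p53 WT libraries, and -0.08 (SE 0.10, adjusted p = 0.62 by edgeR). The groups overlapped. Of the 12 genes of this list 2 rose and none fell: MAFK, a small MAF partner of such factors, at 0.77 (adjusted p = 7.26e-05 by edgeR) and STAT3 at 0.62 (adjusted p = 0.00151 by edgeR). Their neighbours were at 0.30 and 0.09. The protease DDI2 and the glycanase NGLY1, which process NFE2L1, had 0.10 and -0.30 (adjusted p = 0.701 and 0.0702 by edgeR).

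Of 16 shuttle and p97 genes, 6 fell and 1 rose, against 14.4% lower and 12.1% higher among all genes and 22.2% and 17.8% among abundant genes. VCP, the p97 ATPase that extracts ubiquitinated proteins, had 556, 557 and 606 CPM in p53 KO libraries, against 868, 876.5 and 874 CPM in p53 WT libraries, and -0.61 (SE 0.08, adjusted p = 0.000111 by edgeR). Its cofactors UFD1L, NPLOC4 and FAF1 had -0.70, -0.40 and -0.70 (adjusted p = 0.000127, 0.00448 and 0.000434 by edgeR). UBQLN1, a shuttle, and ZFAND5, a proteasome activator, had -0.51 and -0.54 (adjusted p = 0.000773 and 0.000707 by edgeR). These 6 genes had neighbours between -0.54 and -0.21, and ZFAND2A, the 1 that was higher, had 0.40 (adjusted p = 0.0474 by edgeR) beside neighbours at 0.30. Of the ubiquitin genes, UBB and RPS27A had 0.01 and 0.10 and did not pass, and the E1 enzyme UBA1 rose by 0.43 (adjusted p = 0.0023 by edgeR) beside neighbours at 0.60.

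None of the 44 proteasome genes listed in the authors' deposited table was marked there as intersecting a p53 cistrome, a mark that 124 of its 35987 genes carry. The authors' deposited table gave 13 proteasome genes an adjusted p under 0.05, and 12 of them were also called by edgeR here. All 12 had the same direction once that table's fold change, in which CDKN1A is positive, is read as p53 WT over p53 KO. The fold change and the test score have opposite signs there for all 35987 genes, so the direction was read from CDKN1A. PSMD1 was called in the authors' deposited table alone, with an adjusted p of 0.0455 there. Of the 18 calls made here, PSMA3, PSMB5, PSMB6, PSMD8, PSMG3 and PSME2 did not pass in the authors' deposited table, with adjusted p of 0.0858 to 0.367 there.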

How the data were processed

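The deposited gene-level table holds raw, whole-number counts by symbol, with no per-sample column unused. A second table, made by the authors, gives, per the file headers, a mean expression signal, a log2 fold change with its error, a score for the test, and p-values. The submitters' processing notes name HISAT2 2.1.0, DESeq2 1.3.6, fastp 0.21.0 and the build GRCh37 (hg19). How reads were assigned to genes, and whether by strand, is not stated, so near copies, overlapping genes and antisense genes are uncertain.

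All 22352 genes kept by filterByExpr entered edgeR 4.0.16 (R 4.3.3), with TMM factors of 0.979 to 1.02, a robust quasi-likelihood test and Benjamini-Hochberg adjustment. Errors were derived from the F statistic. The members, lists and tests were chosen with earlier results of these data known. Values per library are given for every member past the threshold, for the most and least abundant member of each role group, for PSMD10, PSME3 and PSMB10, and for members without counts. Partner genes are named where they passed, plus NFE2L1, POMP, ADRM1 and SEM1, except that some listed genes are not reported here, although the counts include them; PSMB7, PSMD14, PSMD11, DDI2 and NGLY1 were among those added after their values were seen. Genes were ordered by RefSeq GRCh38.p14 (13635 placed by symbol, 999 by synonym). Neighbours averaged 2 CPM or more, 25 to each side, and their median entered as a fixed offset, so its own error is not in the intervals. Coding lengths and principal starts came from GENCODE 29. The fit and the offset step were tested on simulated counts with a known offset. The ordering of genes and the neighbours' median were not part of that test. A count of 0 allows up to 3 counts, 0.0381 to 0.15 CPM in a library, which covers counting error only. No 2 libraries of a genotype agreed within sampling noise (chi-square per degree of freedom at least 16.7).

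The alternatives were other scaling (RLE, upper quartile, none), filtering (none, or 1 CPM in 3 libraries) and tools (limma-voom with limma 3.58.1, DESeq2 1.42.0), a stricter threshold of 0.01, leaving out each library, blocking on replicate number, and the neighbours' offset.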

Additional observations from a re-analysis of the deposited data

How the results depend on the processing

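Proteasome genes called higher numbered 11, lower 7 and in all 18, and partner genes called numbered 18. At an adjusted p under 0.01 the counts were 6, 4 and 10, and 3758 of all genes against 5924. With the neighbours' median taken off they were 3, 3 and 6, and 3644 of all genes; PSMA3 (0.27), PSMA7 (-0.022) and PSMC6 (0.32) changed sign. Leaving out each library in turn gave 6 to 11 higher, 4 to 9 lower and 10 to 17 in all, 4160 to 6059 called of all genes, 13 to 20 partners, a median of 0.05 to 0.15 and -3.62 to -3.51 for CDKN1A. All 18 calls held with RLE factors, no composition factors, the 1 CPM filter, DESeq2 and limma-voom. PSME3 lost its call with no filter (adjusted p = 0.0945 by edgeR) and PSME2 with upper-quartile factors. Deviations of same-numbered libraries were hardly correlated across genes (r 0.0171, 0.0343 and -0.0291), and 0 of 3 p53 KO libraries correlated best with their own number. The labels do not say whether same-numbered libraries were made together. In both groups replicate 1 was the deepest and replicate 3 the shallowest. With the replicate number as a block, 14 proteasome genes (8 higher, 6 lower) and 5159 of all genes were called. The lowest count of a tested proteasome gene was 231, for PSMB10 in p53 WT replicate 3, so depth limits precision there.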
